A study of Mus musculus with 2 samples.

Results

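The genes described here are 34 enzymes, regulators and carriers of sterol and fatty acid synthesis, of 32285 genes listed in the feature tables of both libraries. They were chosen by gene symbol alone, from a fixed list that holds 17 enzymes of the mevalonate and sterol steps, 5 regulators of the SREBP factors, 2 sterol-regulated trafficking genes, 4 fatty acid synthesis enzymes and 6 desaturases and elongases. The data are droplet single-cell counts of leukocytes taken from mouse aortas and selected on CD45, the surface protein of white blood cells. The treated library came from mice given ZnDPA@siIRF5, a preparation with an interfering RNA against the transcription factor IRF5, and the control library from the control group of the same study. Each group had 1 library, so values carry counting error only, and animals, dissection and library cannot be told apart from the treatment. The labels do not give the number of mice, their genotype, diet, sex or age, or what the control group received. The study's title names atherosclerosis and macrophage efferocytosis, the engulfment of dead cells, as its subject.

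Animal cells make cholesterol from acetyl-CoA through mevalonate, farnesyl diphosphate, squalene and lanosterol, and make fatty acids from the same acetyl-CoA through malonyl-CoA, followed by elongation and desaturation. SREBP proteins, made from Srebf1 and Srebf2, are membrane-bound transcription factors. When membrane sterol is low, Scap carries them from the endoplasmic reticulum to the Golgi, where they are cleaved and released to switch on most of these genes, while Insig proteins hold Scap back when sterol is plentiful. In arterial plaques, macrophages take up lipoprotein cholesterol, and lymphocytes draw on sterol synthesis when they divide.

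Promoter sequences of 27 of the 34 genes were found in the RefSeq tables for GRCm38.p6, the build also called mm10. Each runs 250 bases before to 50 bases after the first start listed for the gene. For Acaca this window, chr11:84195188-84195487, lies inside the gene, which begins at chr11:84129672 in GENCODE vM21. Most of the windows of 2 minus-strand genes also lies inside the gene. These are Fads2, chr19:10101454-10101753, whose gene begins at 10101746, and Msmo1, chr8:64733529-64733828, whose gene begins at 64733792. Scd1, Scd2, Fdps, Sqle, Fdft1, Stard4 and Fads1 are named only. The sequences below are those of a sterol enzyme, a feedback regulator, a regulator and an elongase. The promoter of the enzyme held the classical sterol response element, and the enzyme was added after this match had been seen. Levels of the regulators and the elongase differed between leukocyte classes, but some other genes had wider fold ranges than the regulators. Capitals mark the element TCACNCCAC, in Hmgcs1 alone, and CCAAT boxes, which read ATTGG on the opposite strand.
Hmgcs1, chr13:119690101-119690400, plus strand: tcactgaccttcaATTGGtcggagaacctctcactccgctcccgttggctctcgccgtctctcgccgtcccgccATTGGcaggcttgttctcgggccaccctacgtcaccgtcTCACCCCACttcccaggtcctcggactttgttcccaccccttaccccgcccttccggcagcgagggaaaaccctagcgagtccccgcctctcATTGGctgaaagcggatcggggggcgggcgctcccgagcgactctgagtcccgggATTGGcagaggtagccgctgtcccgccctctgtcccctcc
Insig1, chr5:28071162-28071461, plus strand: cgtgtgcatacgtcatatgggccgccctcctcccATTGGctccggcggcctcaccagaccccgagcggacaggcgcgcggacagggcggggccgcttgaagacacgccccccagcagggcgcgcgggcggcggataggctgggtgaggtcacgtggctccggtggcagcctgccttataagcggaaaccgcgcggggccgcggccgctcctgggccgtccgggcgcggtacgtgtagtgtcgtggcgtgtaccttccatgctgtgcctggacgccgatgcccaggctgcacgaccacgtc
Srebf2, chr15:82147019-82147318, plus strand: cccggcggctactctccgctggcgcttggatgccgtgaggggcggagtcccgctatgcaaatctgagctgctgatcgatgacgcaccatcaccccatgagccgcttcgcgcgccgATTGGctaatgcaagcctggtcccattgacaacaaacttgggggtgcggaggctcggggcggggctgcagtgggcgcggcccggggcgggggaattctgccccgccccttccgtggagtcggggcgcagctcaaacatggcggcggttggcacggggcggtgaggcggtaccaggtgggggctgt
Elovl5, chr9:77917115-77917414, plus strand: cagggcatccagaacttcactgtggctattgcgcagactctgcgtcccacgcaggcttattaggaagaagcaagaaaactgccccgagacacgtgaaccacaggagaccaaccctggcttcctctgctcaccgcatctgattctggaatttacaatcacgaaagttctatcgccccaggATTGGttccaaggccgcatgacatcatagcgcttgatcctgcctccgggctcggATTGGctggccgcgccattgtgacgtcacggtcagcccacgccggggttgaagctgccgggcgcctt

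Short motifs were searched on both strands, with overlaps between motifs allowed. The element TCACNCCAC stood in 1 of the 27 promoters, that of Hmgcs1 at -137 from the start, against 1.22% of 27025 promoters of the same length. CCAAT was present in 21 of 27 promoters (77.8%), against 37.9% of all promoters, and in 12 of the 14 sterol enzyme promoters. The GC box GGGCGG was present in 20 of 27 (74.1%), against 35.9% of all. The E box CACGTG was present in 5 of 27 (18.5%), against 7.24% of all. A match describes letters only, and these shares are not corrected for base composition.

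After filtering, 11805 treated and 11523 control cells were kept, with medians of 4543 and 4629 UMIs (unique molecular identifiers, 1 for each captured transcript) per cell, and 38 cell barcodes occurred in both libraries. The cells formed 29 clusters, of which 26 carried enough markers to be named into 16 classes, 15 of leukocytes and 1 of fibroblast-like cells; the 34 genes took no part in the clustering. CD45 transcripts (Ptprc) were seen in at least 44.9% of treated and 52.0% of control cells of each leukocyte class, and in 25.3% and 29.4% of fibroblast-like cells. Irf5, the siRNA target, was at 124 CPM in treated and 112 CPM in control macrophage-like cells, where CPM is the usual depth-scaled unit, UMIs of a gene relative to all UMIs of the class, a log2 ratio of 0.14 (0.04 to 0.25), and no compared class had it lower beyond counting error. It was higher beyond counting error in T-like cells (7.15 CPM treated, 3.98 control; 0.85), neutrophil-like cells (41.1 and 26.1; 0.65) and monocyte-like cells (161 and 129; 0.32) as well. Transcripts of 7 of 8 adipocyte markers were seen, 1803 UMIs in treated and 1583 in control cells, with Lep at 0 in both. They concentrated in fibroblast-like cells (538 CPM treated, 1736 control) and in treated granulocyte precursor-like cells (798 CPM, against 1.10 in control), stood at 17.1 and 22.5 CPM in macrophage-like cells, and were rare in the other classes compared.

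Of the 34 genes, Elovl5 and Scd1 reached the highest levels, each in a different lymphoid class. Classes are ranked here and below by the mean of both libraries, so the highest or lowest class need not be that of each library. Scd1, the stearoyl-CoA desaturase that makes monounsaturated fatty acids (chr19:44394455-44407879, minus strand, GENCODE vM21), was at 418 CPM (400 to 436) in treated and 362 CPM (349 to 376) in control B-like cells, with a UMI in 81.0% and 76.2% of them. Germinal centre B-like cells followed at 110 CPM in treated and 106 CPM in control, and plasma-like cells were at 23.9 and 23.2 CPM. T-like cells had 0.74 CPM in treated and 2.20 CPM in control, and mast-like and pDC-like cells had no Scd1 UMI in either library. The B-like level was therefore 3.81 times that of the second class in treated and 3.40 times in control cells. After thinning every cell to 2000 UMIs, 55.1% of treated and 53.5% of control B-like cells kept a Scd1 UMI, against 0.12% and 0.52% of T-like cells. Outside the leukocytes, fibroblast-like cells held 136 CPM in treated and 67.0 CPM in control.

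Elovl5, the elongase of polyunsaturated fatty acids (chr9:77917364-77984519, plus strand), was at 1020 CPM (936 to 1108) in treated and 785 CPM (707 to 870) in control ILC2-like cells, the innate lymphoid cells that make type 2 cytokines. A UMI was seen in 88.8% of treated and 82.1% of control ILC2-like cells. The γδ T-like class came next with 234 CPM in treated and 242 CPM in control, followed by T-like cells with 224 and 210 CPM and NK-like cells with 207 and 225 CPM. These 3 neighbours lay close together, and the ILC2-like level was 4.35 times that of the second class in treated and 3.24 times in control. Within T-like cells the level ran from 327 CPM treated and 296 control in a cluster led by Lef1 and Sidt1 to 134 and 107 CPM in a cluster led by Gzmb, Gzmk and the cell cycle gene Stmn1. Plasma-like cells were lowest at 19.97 CPM in treated and 16.0 CPM in control.

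**Figure D1:**
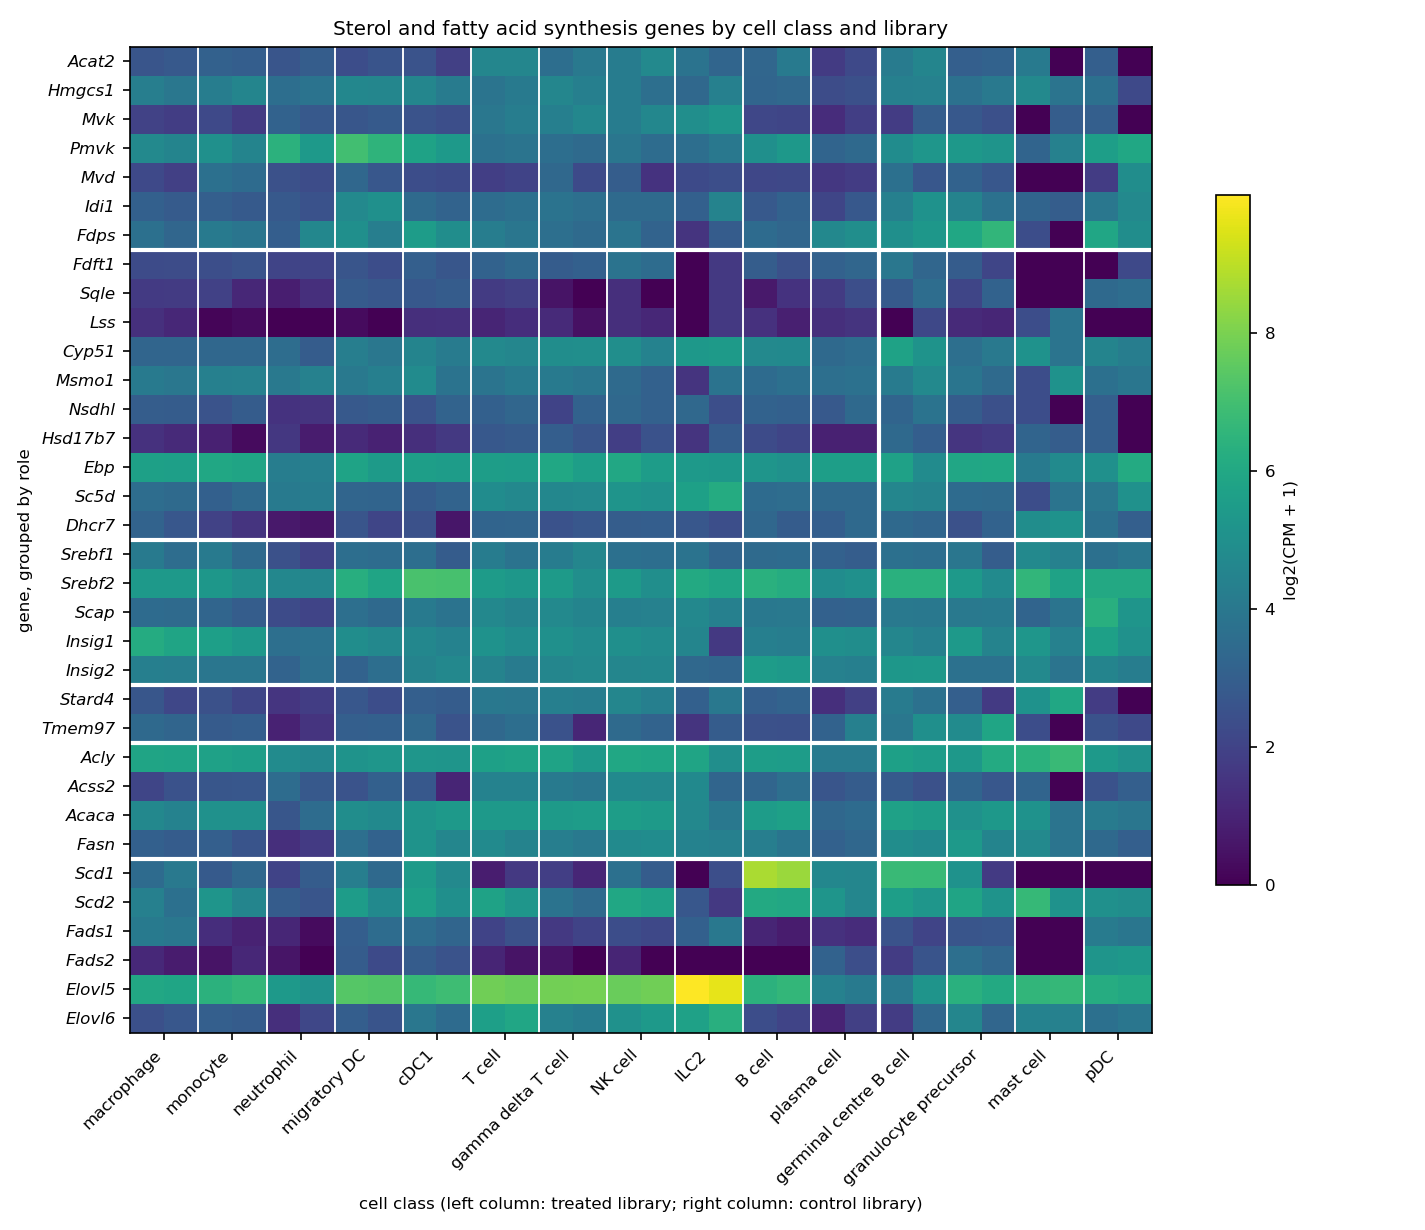
Level of each of the 34 genes (rows, grouped by role) as log2(CPM + 1), in 15 leukocyte classes (columns; for each class the treated library is the left and the control library the right column). The brightest cells are Elovl5 in ILC2-like cells (1020 CPM treated, 785 control) and Scd1 in B-like cells (418 CPM treated, 362 control); the 4 classes right of the thick line had under 100 cells in at least 1 library.

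The order of classes partly depends on what the CPM total holds. Immunoglobulin transcripts made up 49.6% of UMIs in treated and 50.9% in control plasma-like cells, and at most 6.53% in any other leukocyte class. On the full total, 8 of the 34 genes had their lowest level in plasma-like cells and 10 in neutrophil-like cells. With immunoglobulin, mitochondrial and ribosomal protein genes left out of the total, an alternative chosen after seeing the data, none was lowest in plasma-like and 15 were lowest in neutrophil-like cells. The highest class was the same on both scales for 26 of the 34 genes. On the reduced total, plasma-like cells became the highest class for Fdft1, Msmo1, Nsdhl, Ebp and Insig1. On the full total, the highest class was the same in both libraries for 18 genes. Its interval lay above that of the second class in both libraries for 6, namely Pmvk, Srebf2, Insig1, Scd1, Fads2 and Elovl5.

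The 17 sterol enzymes summed differed between classes over a smaller range than Scd1 or Elovl5. Germinal centre B-like cells were highest with 321 CPM in treated and 322 CPM in control, and plasma-like cells lowest with 149 and 174 CPM, a 1.99-fold range of the mean over libraries. Without immunoglobulin, mitochondrial and ribosomal protein genes the same plasma-like cells stood at 368 CPM in treated and 434 CPM in control, next to 435 and 427 CPM in germinal centre B-like cells, and the lowest class was neutrophil-like at 203 and 178 CPM. The low place of plasma-like cells on the full total was thus not found on the other scale. Migratory DC-like cells, a dendritic cell cluster with Ccr7 and Fscn1 that also carried Cd209a, had 344 CPM in treated and 284 CPM in control. Macrophage-like cells had 185 and 165 CPM.

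Among the mevalonate enzymes, Pmvk (phosphomevalonate kinase, chr3:89454541-89469013, plus strand) was at 125 CPM in treated and 90.5 CPM in control migratory DC-like cells and at 84.7 and 39.9 CPM in neutrophil-like cells, with 8.40 and 9.65 CPM in plasma-like cells. Its low end moved to γδ T-like cells without immunoglobulin in the total, at 13.5 CPM treated and 12.1 control. Acat2, which joins acetyl-CoA units, was highest in T-like cells with 23.1 CPM treated and 23.4 control. Hmgcs1, the HMG-CoA synthase, was highest in migratory DC-like cells at 23.6 and 22.9 CPM. The mevalonate kinase Mvk was highest in ILC2-like cells at 29.7 CPM in treated and 36.4 CPM in control. These 3 genes were lowest in plasma-like cells, between 1.40 and 4.43 CPM. Idi1, the isopentenyl diphosphate isomerase, was at 24.9 CPM in treated and 31.2 CPM in control migratory DC-like cells, and also lowest in plasma-like cells at 3.31 and 5.72 CPM. The decarboxylase Mvd was highest in pDC-like cells at 2.40 CPM in treated and 28.7 CPM in control, where it rests on few UMIs, and had none in mast-like cells. Fdps, the farnesyl diphosphate synthase, was highest in granulocyte precursor-like cells at 60.8 and 94.9 CPM and lowest in mast-like cells. Its values are uncertain, since 84.0% of the 31-base words in the last 500 bases of its transcripts also occur in 7 other annotated genes.

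Most enzymes of the squalene and sterol ring steps were low. Classes are ranked here on the full total. Without immunoglobulin, mitochondrial and ribosomal protein genes in it, plasma-like cells were highest for Fdft1, Msmo1, Nsdhl and Ebp. Cyp51, the lanosterol demethylase, was highest by the mean in germinal centre B-like cells with 53.1 CPM in treated and 33.7 CPM in control. It was lowest in macrophage-like cells with 8.52 and 8.55 CPM. In control alone, ILC2-like cells had more Cyp51, at 42.8 CPM, and neutrophil-like cells less, at 6.53 CPM. Ebp, the sterol isomerase, was at 61.2 CPM in treated and 55.7 CPM in control monocyte-like cells and 59.5 and 60.7 CPM in granulocyte precursor-like cells, against 17.9 and 18.7 CPM in neutrophil-like cells. The lathosterol desaturase Sc5d was highest in ILC2-like cells at 50.1 CPM treated and 70.6 control, and lowest in cDC1-like cells at 6.45 and 8.06 CPM. Germinal centre B-like cells were also highest by the mean for Msmo1 (16.9 CPM treated, 25.0 control), Nsdhl (8.44 and 12.9) and Hsd17b7 (9.65 and 6.997). These act in turn on the methyl groups of the sterol ring. In treated alone, Msmo1 was higher in cDC1-like cells, at 27.3 CPM, and Nsdhl in NK-like cells, at 9.34 CPM. Msmo1 was lowest in ILC2-like, Nsdhl in neutrophil-like and Hsd17b7 in monocyte-like cells. Dhcr7, the reductase of the last step, was highest in mast-like cells at 29.0 CPM treated and 33.5 control, from 7 and 5 UMIs. It was under 1 CPM in neutrophil-like cells. The squalene synthase Fdft1 was highest in NK-like cells at 12.97 and 10.5 CPM. Squalene epoxidase, Sqle, was highest in pDC-like cells at 9.59 CPM in treated and 10.8 CPM in control, from only 4 and 3 UMIs. Lanosterol synthase, Lss, was highest in mast-like cells, where it had 1 UMI in treated and 2 in control. Fdft1 and Sqle had no UMI in mast-like cells, and Lss none in pDC-like cells; with 3 UMIs as the floor for a count of 0, levels up to 12.4 CPM in treated and 20.1 CPM in control mast-like cells, and up to 7.196 and 10.8 CPM in pDC-like cells, could have gone unseen.

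The regulators were each highest in a different class. Srebf2, which encodes the factor for sterol genes (chr15:82147181-82205379, plus strand), was at 140 CPM in treated and 135 CPM in control cDC1-like cells, dendritic cells known for presenting engulfed antigen to CD8 T cells, 1.73 and 1.68 times the second class. Germinal centre B-like (80.8 and 80.1 CPM) and B-like cells (79.7 and 71.1 CPM) followed, and neutrophil-like cells were lowest at 24.0 and 23.0 CPM. Insig1, which encodes an anchor of Scap (chr5:28071363-28078662, plus strand), was at 69.4 CPM in treated and 56.3 CPM in control macrophage-like cells. It was at 49.4 and 39.4 CPM in monocyte-like cells, and 11.6 and 12.4 CPM in neutrophil-like cells. On the total without immunoglobulin, mitochondrial and ribosomal protein genes, plasma-like cells had 74.8 CPM in treated and 71.9 CPM in control, beside 78.5 and 63.7 CPM in macrophage-like cells. Its relative Insig2 was highest in B-like cells at 45.1 and 40.8 CPM, with 18.9 and 18.5 CPM in macrophage-like cells, and lowest in ILC2-like cells at 9.27 and 8.56 CPM. Srebf1, which encodes the factor for fatty acid genes, was highest in mast-like cells at 24.8 and 20.1 CPM, from only 6 and 3 UMIs. In control, γδ T-like cells were higher, at 23.1 CPM from 62 UMIs. Srebf1 was lowest in neutrophil-like cells at 4.55 and 2.93 CPM. The escort protein gene Scap was highest in pDC-like cells at 79.2 CPM in treated and 35.9 CPM in control, and also lowest in neutrophil-like cells. Of the trafficking genes, the sterol carrier Stard4 was highest in mast-like cells at 33.1 and 60.2 CPM, from 8 and 9 UMIs, and lowest in pDC-like cells. Tmem97, an endoplasmic reticulum protein that binds the cholesterol exporter NPC1, was highest in granulocyte precursor-like cells at 27.2 CPM treated and 58.5 CPM control, with 14.5 and 30.4 CPM in germinal centre B-like cells and 0.94 and 1.80 CPM in neutrophil-like cells. Granulocyte precursor-like cells had a median of 1996 UMIs in treated and 11656 in control, so their values compare cells of unequal depth.

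**Figure D2:**
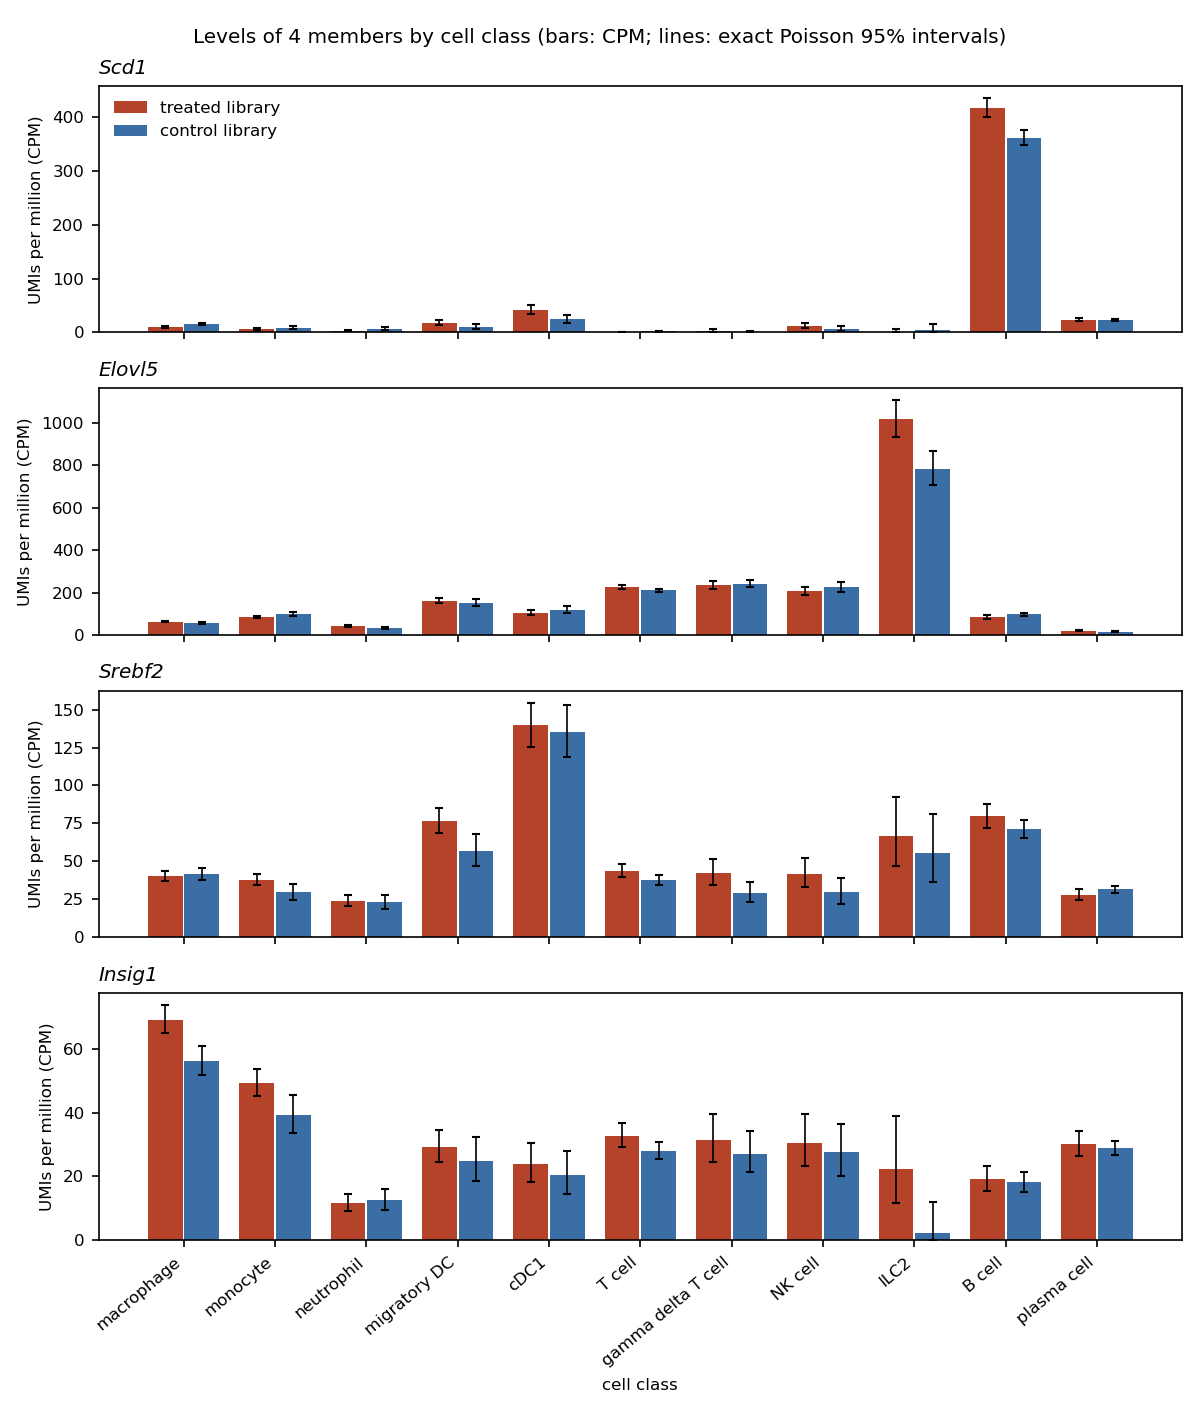
CPM of Scd1, Elovl5, Srebf2 and Insig1 (y axis, 1 panel per gene, each starting at 0) in the 11 leukocyte classes with at least 100 cells in each library, treated bars left of control bars; lines are exact Poisson 95% intervals. Each gene peaks in another class, B-like, ILC2-like, cDC1-like and macrophage-like, in both libraries.

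Fatty acid synthesis enzymes each had their highest level in a different class. Acly, the ATP citrate lyase that supplies cytosolic acetyl-CoA, was at 82.8 CPM in treated and 107 CPM in control mast-like cells and at 60.7 and 57.4 CPM in NK-like cells, and lowest in plasma-like cells at 17.0 and 16.9 CPM. Acss2, which makes acetyl-CoA from acetate, was highest in NK-like cells at 25.9 and 24.6 CPM and lowest in cDC1-like cells at 5.69 and 1.07 CPM. The carboxylase Acaca was highest in germinal centre B-like cells at 51.9 and 46.0 CPM, close to 45.4 and 50.8 CPM in B-like cells, and lowest in neutrophil-like cells at 5.33 and 10.6 CPM. Fatty acid synthase, Fasn, was highest in granulocyte precursor-like cells at 40.1 and 22.1 CPM and lowest in neutrophil-like cells at 1.57 and 2.25 CPM. In those precursor-like cells adipocyte markers stood at 798 CPM in treated and 1.10 CPM in control, and their part in the Fasn level was not tested. Scd2, the paralogue of Scd1, was highest in mast-like cells at 104 CPM in treated and 33.5 CPM in control, from 25 and 5 UMIs. It was at 65.4 and 62.1 CPM in B-like cells, and lowest in ILC2-like cells at 5.56 and 2.14 CPM. The front-end desaturases Fads1 and Fads2 were both highest in pDC-like cells. Fads1 was at 16.8 and 14.3 CPM there, from 7 and 4 UMIs, and Fads2 at 36.0 and 39.4 CPM, from 15 and 11. Neither had a UMI in mast-like cells. Fads2 had no UMI in B-like cells of either library, where the floor was 0.62 CPM in treated and 0.41 CPM in control. Elovl6, the elongase of saturated fatty acids, was highest in ILC2-like cells at 51.9 and 77.0 CPM and in T-like cells at 48.9 and 58.7 CPM, and lowest in plasma-like cells at 1.02 and 2.71 CPM.

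Treated and control cells were then compared in the 11 classes with at least 100 cells in each library, the comparison the study was designed for. A log2 ratio of treated over control was given where a gene had at least 50 UMIs over both libraries, which held for 249 pairs of gene and class. Of these, 32 pairs differed by at least 1.5-fold, 18 higher and 14 lower in treated. In 25 of them the exact 95% counting interval left out 0. Over all genes measured, the share past 1.5-fold ran by class from 3.11% to 8.77% higher and from 2.32% to 11.4% lower. These shares use the fold alone and stand beside the 32 pairs. The share of all genes that also met the interval rule, to set beside the 25, is not given here. Since each group had 1 library, no test was possible and these ratios compare libraries.

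In macrophage-like cells (2039 treated, 1513 control) the genes leaned slightly to the treated side. Of the 31 genes measured, 23 had a ratio above 0, and the median log2 ratio was 0.17, beside 0.03 over all genes measured. At least 1.5-fold higher were 2 genes, against 3.13% of all genes, and 1 gene was at least 1.5-fold lower, against 4.56% of all genes. Scd2 was at 19.2 CPM in treated and 11.95 CPM in control, a log2 ratio of 0.69 (0.37 to 1.01). Stard4 was at 5.46 and 3.40 CPM, at 0.68 (0.09 to 1.31). Next came Srebf1 at 16.1 and 10.9 CPM, 0.56 (0.23 to 0.91), and Dhcr7 at 8.16 and 5.64 CPM, 0.53 (0.06 to 1.02). Fdps at 0.43 and Hmgcs1 at 0.33 (0.03 to 0.63) had intervals above 0 as well, and Insig1 was at 0.30 (0.15 to 0.45). None of the 15 sterol enzymes measured and none of the 5 SREBP regulators was past 1.5-fold; the ring-step enzymes had a median of 0.03, that of all genes. Srebf2 was at -0.04, with 40.4 CPM in treated and 41.5 CPM in control. The sterol enzymes summed had 185 CPM in treated and 165 CPM in control, a log2 ratio of 0.16 (0.07 to 0.25).

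At the lower end stood Scd1, at 10.3 CPM in treated and 15.6 CPM in control macrophage-like cells, a log2 ratio of -0.61 (-0.94 to -0.27). Acss2 was at 3.20 and 4.76 CPM, Elovl6 at 4.44 and 5.64 CPM and Acat2 at 5.17 and 5.93 CPM, with intervals that held 0. Lss, Hsd17b7 and Fads2 had under 50 UMIs and no ratio. B cell marker transcripts, from cells in which Scd1 was 40.7 times the median class in treated and 55.5 times in control, summed to 134 CPM in treated and 289 CPM in control macrophage-like cells. In the 413 treated and 226 control macrophage-like cells with at most 1 UMI of T, B, plasma cell or neutrophil markers, Scd1 was at 8.06 and 12.6 CPM, -0.64 (-1.87 to 0.58), and Scd2 at 9.92 and 6.78 CPM, 0.55 (-0.81 to 2.07). With each cell given the same weight the Scd1 ratio was -0.37, and over all settings it ranged from -0.70 to -0.37, so it did not stay past 1.5-fold in all of them. Stard4 likewise ranged from 0.41 to 0.78 and Scd2 from 0.55 to 0.86.

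**Figure D3:**
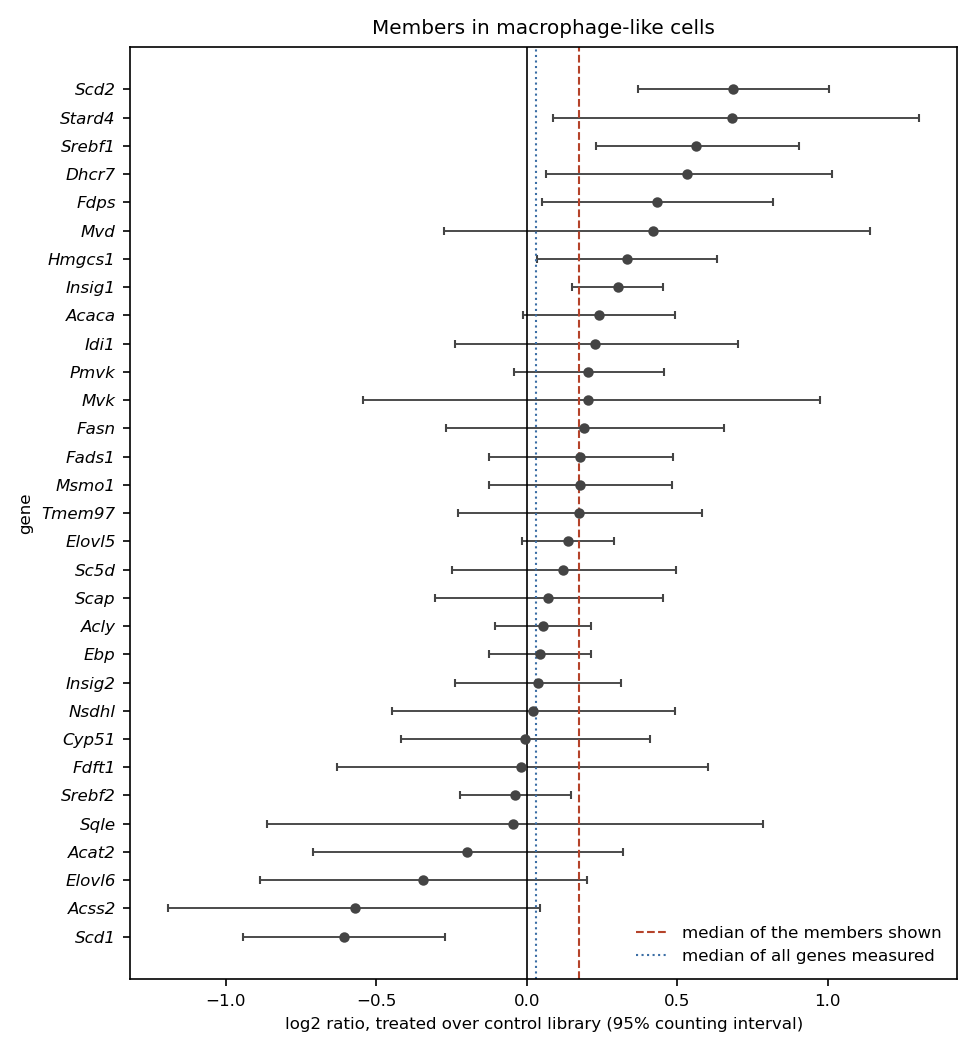
Log2 ratio of treated over control in macrophage-like cells (x axis) for the 31 genes with at least 50 UMIs (y axis, sorted); points are ratios, lines 95% counting intervals, the dashed line the median of these genes (0.17) and the dotted line that of all genes measured (0.03). Scd2 at 0.69 is at the top and Scd1 at -0.61 at the bottom, with most intervals crossing 0.

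The macrophage-like class was made of 3 clusters, and the ratios were not alike in them. In the cluster with Ccl4, Ccl12 and Ms4a7, Insig1 was at 70.4 CPM in treated and 44.6 CPM in control, 0.66 (0.41 to 0.91). It was at 100 and 85.0 CPM in the cluster with Lyve1 and Folr2, markers of resident vascular macrophages, and at 27.8 and 29.3 CPM in the cluster with Spp1, Gpnmb and Trem2, markers of lipid-laden macrophages. Scd2 was highest in the Spp1 cluster, with 15.1 and 8.66 CPM in the Ccl4 cluster, 6.44 and 6.15 CPM in the Lyve1 cluster and 43.3 and 29.8 CPM in the Spp1 cluster. Its log2 ratios there were 0.80, 0.07 and 0.54. Scd1 was at 8.12 and 16.4 CPM in the Ccl4 cluster and at 5.75 and 11.8 CPM in the Lyve1 cluster, with 19.998 and 21.0 CPM in the Spp1 cluster. The gap in Scd1 between libraries was therefore seen in the clusters where it was lowest; the difference between clusters was not tested.

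Other genes of the pathway were read from lists in macrophage-like cells. All 5 genes of SREBP processing and sterol-dependent degradation were measured, with a median of 0.18 and none past 1.5-fold. Of the 8 genes of the isoprenoid branch and late sterol steps, 7 were measured, none past 1.5-fold, with a median of 0.07. Among the 7 genes of the sterol-sensing receptor LXR and its targets, 2 were at least 1.5-fold higher. They were Nr1h3, the gene of LXR alpha, at 23.8 CPM in treated and 13.6 CPM in control, 0.81 (0.52 to 1.10), and Abcg1, a cholesterol exporter, at 151 and 87.9 CPM, 0.78 (0.67 to 0.90). Abca1, the other LXR-driven exporter, was at 824 CPM in treated and 894 CPM in control. Of the 7 genes of sterol and acyl storage, Ch25h, the cholesterol hydroxylase whose product restrains SREBP processing, was at least 1.5-fold lower at 16.8 and 26.9 CPM, -0.68 (-0.94 to -0.42), with a list median of 0.26. Of the 18 genes of fatty acid supply and activation, 14 were measured with a median of 0.00, and the elongation enzyme Hacd3 was at least 1.5-fold lower at 18.8 CPM in treated and 30.9 CPM in control, -0.72.

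Monocyte-like cells (1617 treated, 627 control) had 28 genes measured, with a median of 0.13, against 0.00 over all genes. At least 1.5-fold higher were 3 genes, against 3.6% of all genes, and 1 was at least 1.5-fold lower, against 4.32%. Scd2 was at 36.0 CPM in treated and 22.1 CPM in control, 0.70 (0.38 to 1.04). In the cells with at most 1 UMI of other cells' markers it was at 45.6 CPM in 237 treated and 45.4 CPM in 60 control cells, 0.01 (-0.98 to 1.12). Srebf1 was at 16.3 and 9.78 CPM, 0.73 (0.24 to 1.25), and in the cluster with Ace and Treml4, known markers of nonclassical monocytes, at 18.7 and 5.99 CPM. The 5 SREBP regulators summed had 126 CPM in treated and 100 CPM in control.

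Neutrophil-like cells (2329 treated, 1278 control) had the largest ratios of the 249 in either direction. Of 18 genes measured, 3 were at least 1.5-fold higher, against 6.05% of all genes, and 2 at least 1.5-fold lower, against 11.4%, while the median was 0.00. Pmvk, with 540 UMIs in treated and 177 in control, was at 84.7 and 39.9 CPM, 1.09 (0.84 to 1.34). The gap was present in both neutrophil clusters, at 92.6 and 40.7 CPM in the cluster with Retnlg and Stfa2l1 and at 66.0 and 38.8 CPM in the cluster with Camp and Ltf, granule genes of immature neutrophils. In cells with at most 1 UMI of other cells' markers it was 89.6 and 47.2 CPM, 0.92 (0.63 to 1.23). Acss2 was at 10.7 CPM in treated and 5.85 CPM in control, 0.87 (0.19 to 1.58), and Cyp51 at 10.98 and 6.53 CPM, 0.75 (0.11 to 1.43). Neither held under every setting: Acss2 was at 0.45 (-0.34 to 1.31) in the cells with few foreign markers, and Cyp51 at 0.22 with called doublets kept.

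The 2 genes lower in treated neutrophil-like cells rested on few UMIs or few cells. Fdps was at 6.90 CPM in treated and 23.9 CPM in control, -1.79 (-2.33 to -1.27), and 1 cell held 13.2% of the control UMIs. With each cell given the same weight the ratio was -0.45, and the difference lay in the cluster with Camp and Ltf, at 18.5 and 51.0 CPM, while the cluster with Retnlg had 2.01 and 2.42 CPM. Acaca was at 5.33 CPM in treated and 10.6 CPM in control, -0.99 (-1.67 to -0.32), from 34 and 47 UMIs, and its ratio ranged from -1.28 to -0.30 over the alternatives. In neutrophil-like cells 9 of the 12 cell cycle genes were at least 1.5-fold lower in treated, with a list median of -0.98, and the cluster with Camp and Ltf held 381 of the 2329 treated and 275 of the 1278 control cells; their part in the Fdps and Acaca ratios was not tested. With both clusters given the same weights in the 2 libraries Fdps was at -1.17, and in the cells with few foreign markers at -0.84 (-1.63 to -0.03).

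Dendritic cells had the highest medians. In cDC1-like cells (199 treated, 140 control) 14 of 17 genes measured had a ratio above 0, with a median of 0.40 beside 0.07 over all genes; 4 were at least 1.5-fold higher, against 6.12% of all genes, and 0 lower, against 3.02%. Msmo1 was at 27.3 CPM in treated and 12.9 CPM in control, 1.08 (0.40 to 1.81), though 0.24 with called doublets kept. Scd1 was at 42.5 and 24.7 CPM, 0.78 (0.27 to 1.31). Scd2 was at 49.3 and 30.1 CPM, 0.71 (0.25 to 1.19), and Fdps at 45.5 and 29.0 CPM, 0.65 (0.17 to 1.14). All 6 sterol enzymes measured there were above 0, and the 17 summed had 275 CPM in treated and 211 CPM in control, 0.38 (0.20 to 0.56). Cells with cell cycle transcripts were 39.7% of treated and 46.4% of control cDC1-like cells; without them the ratios were 1.23 for Scd2 and 1.26 for Fdps. In migratory DC-like cells (534 treated, 258 control) 16 of 21 genes were above 0, with a median of 0.24 beside 0.06; 4 were at least 1.5-fold higher, against 7.4% of all genes, and 1 lower, against 5.1%. Scd1 was at 18.3 CPM in treated and 9.79 CPM in control, 0.90 (0.20 to 1.66). Scd2 was at 44.5 and 26.1 CPM, 0.77 (0.34 to 1.22), and Fdps at 30.7 and 18.2 CPM, 0.76 (0.24 to 1.31). The migratory DC-like cluster also carried Cd209a, a marker from the list of another dendritic cell class, cDC2, and no cluster was named cDC2. Whether the mix of cells in it differed between libraries was not tested.

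The lymphoid classes other than plasma-like cells had few differences. In T-like cells (1774 treated, 2846 control) none of 31 genes measured was past 1.5-fold in either direction, against 3.38% of all genes higher and 2.32% lower. All 5 SREBP regulators were above 0 there, between 0.21 and 0.43, and summed to 140 CPM in treated and 117 CPM in control, while 12 of the 16 sterol enzymes measured were below 0. Scd2 was at 52.7 and 36.7 CPM, 0.52 (0.34 to 0.70). In the T-like cells with at most 1 UMI of foreign markers, 807 treated and 1082 control, 2 genes were past 1.5-fold with an interval off 0. They were Elovl6 at 48.5 and 76.6 CPM, -0.66 (-0.93 to -0.39), and Tmem97 at 4.82 and 9.86 CPM, -1.03 (-1.93 to -0.19). Over all T-like cells these genes were at -0.26 and -0.24. The share over all genes in the cells with few foreign markers is not given here, so these 2 genes have no background beside them. On all cells, none was past 1.5-fold in γδ T-like cells (0 of 23, against 4.43% higher and 2.84% lower), NK-like cells (0 of 18, against 3.92% and 4.09%) or ILC2-like cells (0 of 4, against 7.58% and 7.34%). In γδ T-like cells with few foreign markers Acly was at 65.6 CPM in treated and 36.8 CPM in control, 0.835 (0.194 to 1.498), and 9 of the 10 cell cycle genes measured over all γδ T-like cells were at least 1.5-fold higher in treated. In B-like cells (886 treated, 1525 control) 0 of 26 were at least 1.5-fold higher, against 3.11%, and 1 lower, against 3.63%. That gene was Acat2, at 8.91 CPM in treated and 15.8 CPM in control, -0.82 (-1.36 to -0.31). Scd1, the B-like gene, was at a log2 ratio of 0.21 (0.12 to 0.29).

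Scd1 and Scd2, neighbours on chromosome 19, shared a direction in most classes where both were measured, but not in all. Scd2 was above 0 in all 10 classes in which it was measured, between 0.08 in B-like and 0.77 in migratory DC-like cells. Of the 2915 genes measured in 10 classes, 2.16% were above 0 in all of them. Scd1 was measured in 6 classes and was above 0 in 4 and below 0 in 2. Its interval lay above 0 in 3 classes and below 0 in 1, the macrophage-like cells. Insig1 was above 0 in 9 of 10 classes, as were at least that many for 7.92% of genes measured in 10 classes, and Srebf2 in 9 of 11, against 16.5% of the 2672 genes measured in 11 classes. These classes share their libraries, so they do not count as separate observations of the treatment. Fibroblast-like cells, with 83 treated and 102 control cells, had Scd2 at 134 CPM in treated and 34.9 CPM in control.

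**Figure D4:**
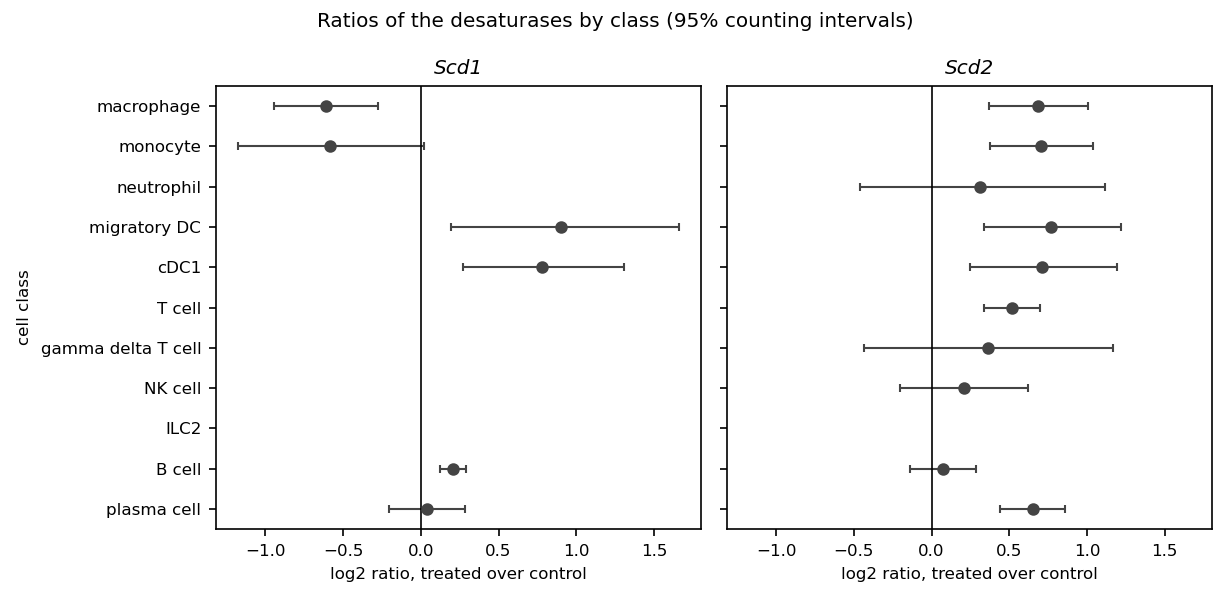
Log2 ratio of treated over control (x axis, the same in both panels) for Scd1 (left) and Scd2 (right) in each class (y axis) with at least 50 UMIs; lines are 95% counting intervals. Scd2 lies right of 0 in all 10 classes shown, whereas Scd1 is at -0.61 in macrophage-like cells and 0.90 in migratory DC-like cells.

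Plasma-like cells (405 treated, 1253 control) leaned the other way. Of 32 genes measured 23 had a ratio below 0, with a median of -0.20 beside 0.00 over all genes; 8 were at least 1.5-fold lower, against 6.73% of all genes, and 2 higher, against 8.77%. Among the sterol enzymes 15 of 16 measured were below 0, and the 17 summed had 149 CPM in treated and 174 CPM in control, -0.22 (-0.32 to -0.13). Tmem97 was at 7.76 CPM in treated and 19.5 CPM in control, -1.33 (-1.74 to -0.94). Elovl6 was at 1.02 and 2.71 CPM, -1.42 (-2.69 to -0.35), from 8 and 65 UMIs. Sqle was at 2.29 and 4.26 CPM, -0.90 (-1.71 to -0.16). Nsdhl was at 5.85 and 9.73 CPM, -0.73 (-1.22 to -0.27). Idi1 was at 3.31 and 5.72 CPM, -0.79 (-1.46 to -0.18), and -0.10 with each cell given the same weight. The intervals of the other 3, Acat2, Mvk and Stard4, held 0. Higher in treated were Fads2 at 7.76 CPM and 4.26 CPM in control, 0.87 (0.38 to 1.34), and Scd2 at 35.8 and 22.8 CPM, 0.65 (0.44 to 0.86). In cells with at most 1 UMI of other cells' markers, 58 treated and 217 control, Scd2 was at 24.6 and 21.5 CPM, 0.19 (-0.63 to 0.94).

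The division state of the plasma-like cells differed between libraries. Cells with at least 2 UMIs of 12 cell cycle genes were 19.8% of treated (80 cells) and 25.6% of control (321 cells), and 10 of the 12 cell cycle genes were at least 1.5-fold lower in treated plasma-like cells. Of 21 genes measured, 11 were at least 1.5-fold higher in cycling than in other plasma-like cells in both libraries, against 43.2% of all genes, and none was lower, against 0.873%. Immunoglobulin transcripts took 35.1% of UMIs in treated cycling cells and 54.6% in the other treated cells, and 31.4% and 60.1% in control. Tmem97 was at 24.8 CPM in cycling and 1.88 CPM in other cells of the treated library, and at 57.2 and 1.78 CPM in the control library. With immunoglobulin out of the total these values were 38.2 and 4.15 CPM in treated, and 83.4 and 4.45 CPM in control. Cycling plasma-like cells of the treated library thus had a lower Tmem97 level than those of the control library, while the levels in the other cells differed by less than counting error. Srebf2 was at 50.1 and 20.2 CPM in treated cycling and other cells and at 51.2 and 22.6 CPM in control, or 77.1 and 44.5 CPM and 74.6 and 56.5 CPM without immunoglobulin. The sterol enzymes summed had 325 CPM in cycling and 281 CPM in other treated cells without immunoglobulin, and 424 and 298 CPM in control. With all cycling cells left out of every class, the number of pairs at least 1.5-fold lower in treated was 9, against 14 with them.

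**Figure D5:**
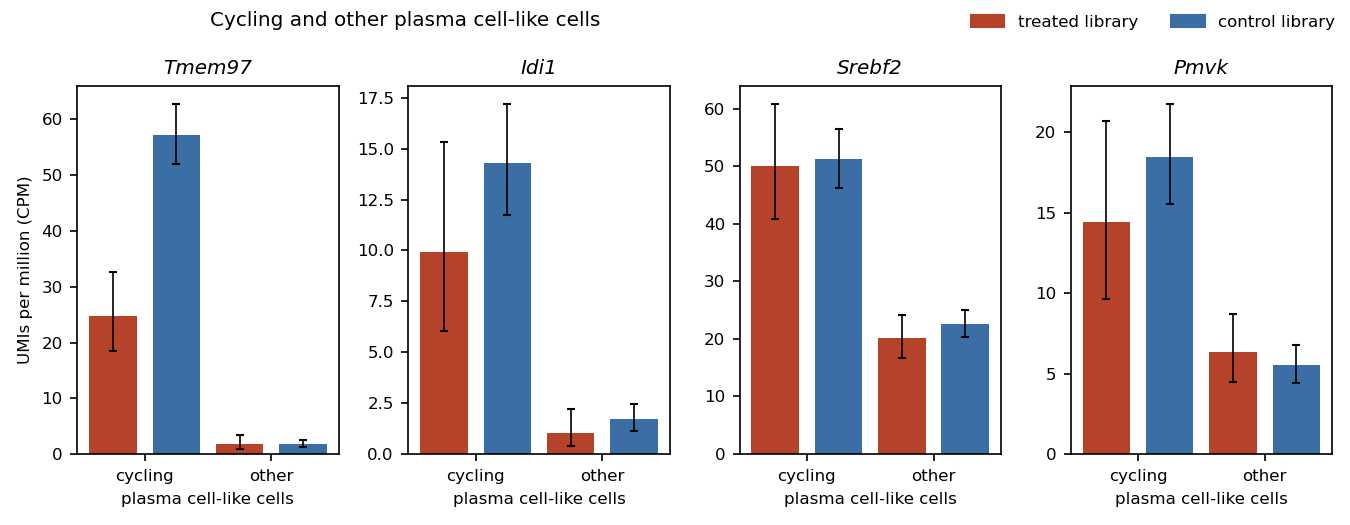
CPM (y axis, each panel from 0) of Tmem97, Idi1, Srebf2 and Pmvk in plasma-like cells with at least 2 UMIs of 12 cell cycle genes (cycling) and without (other), in the treated and control libraries; lines are exact Poisson 95% intervals on the full total, immunoglobulin included. Tmem97 in cycling cells is at 24.8 CPM in treated and 57.2 CPM in control, and under 2 CPM in the other cells of both.

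T-like cells gave a second view of division. Of 28 genes measured, 6 were at least 1.5-fold higher in cycling than in other T-like cells in both libraries, against 13% of all genes, and 1 lower, against 5.84%. The 6 were Ebp, Fdps, Idi1, Pmvk, Stard4 and Tmem97. Idi1 was at 24.8 CPM in cycling and 6.44 CPM in other cells of the treated library and at 19.1 and 9.74 CPM in control. Tmem97 was at 20.3 and 6.17 CPM in treated and 21.1 and 7.96 CPM in control. The sterol enzymes summed had 325 CPM in cycling and 213 CPM in other treated T-like cells, and 316 and 223 CPM in control. The gene lower in cycling cells was Elovl5, at 161 and 244 CPM in treated and 147 and 231 CPM in control. Cycling T-like cells were deeper, with medians of 7426 UMIs against 4482 in treated and 7447 against 3978 in control. In macrophage-like cells 1 of 25 genes, Scd1, was at least 1.5-fold higher in cycling cells of both libraries, against 4.15% of all genes, and none was lower, against 2.01%. In γδ T-like cells 0 of 11 were higher, against 6.38%, and 0 lower, against 6.79%.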

How the data were processed

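The 10x Genomics 3′ droplet kit v2 was used, per the labels' protocols. The submitters' processing notes name Cell Ranger 3.1.0 with Seurat 4.4.0 and mm10; per the file headers, Cell Ranger 7.2.0 wrote both matrices. The deposited values are raw UMI counts per gene and barcode, with no normalization, 77856529 in the treated library (13155 barcodes) and 88567528 in the control library (12516 barcodes). Intron counting and strand use are not given in the sources used here; 12 of the 34 genes overlap a gene on the opposite strand and 9 one on the same strand in GENCODE vM21, so part of their counts could belong to those.

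Barcodes with under 500 genes (511 treated, 352 control) or over 15% mitochondrial UMIs (178 and 126) were removed. Scrublet in scanpy 1.11.5 called 684 doublets (5.20%) in treated and 533 (4.26%) in control, against 10.5% and 10.0% expected, and these were removed; some doublets will remain. Counts were scaled to 10000 per cell and logged, and 2000 variable genes, 30 principal components, 15 neighbours and Leiden resolution 1 gave the clusters (python-igraph 0.11.9, scikit-learn 1.9.0, numpy 2.4.6, scipy 1.17.1, matplotlib 3.10.9, Python 3.11.15). The 34 genes and 45 other pathway genes took no part in clustering, 79 in all. Clusters were named from 24 marker lists, each needing at least 3 markers, and 3 clusters (369 treated and 164 control cells) stayed unnamed. No batch integration was run, since library and group are the same.

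UMIs were summed per library and class. Levels have exact Poisson, ratios exact conditional binomial and shares exact Clopper-Pearson intervals at 95%, all for counting error only. No p-value was computed, because each group has 1 library. A gene is named for its ratio at 50 or more UMIs over both libraries, 1.5-fold or more and an interval without 0; in macrophage-like cells the 4 highest and 4 lowest ratios are named too, and for levels the highest and lowest class of each gene. The ratio calculation was tested on simulated data. The genes, lists and rules were chosen with earlier results of these data known. Alternatives changed the doublet calls, clustering resolution, cell filters, CPM total, centring, cell weights, cluster weights, foreign transcripts, cycling cells and the UMI minimum.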

Additional observations from a re-analysis of the deposited data

Results flagged for a closer look

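Fdps and Scd1 had ratios of opposite direction in different classes, each with an interval that left out 0. The log2 ratio of treated over control for Fdps was -1.79 in neutrophil-like cells, 0.76 in migratory DC-like cells and 0.65 in cDC1-like cells. Over the settings the neutrophil-like value ranged from -1.89 to -0.45, the migratory DC-like value from 0.64 to 0.77 and the cDC1-like value from 0.56 to 1.26. Most of the 3′ end of Fdps is shared with other annotated genes. For Scd1 the log2 ratio was -0.61 in macrophage-like cells (-0.70 to -0.37 over the settings). It was 0.90 in migratory DC-like cells (0.84 to 1.11 over the settings) and 0.78 in cDC1-like cells (0.49 to 0.87). In macrophage-like cells with few foreign markers the counting interval of Scd1 held 0 (-1.87 to 0.58). A single cell held 19.6% of the Scd1 UMIs of control cDC1-like cells. The difference between classes was not tested, since each group has 1 library.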

How the results depend on the processing

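The 25 named ratios were recomputed under up to 13 settings, 274 values in all: 264 kept their direction with a similar size, 10 moved and 0 reversed. The median log2 ratio in macrophage-like cells was 0.17 and became 0.11 at clustering resolution 2 and 0.12 in cells with at most 1 UMI of foreign markers. The 32 pairs past 1.5-fold became 14 in cells with few foreign markers, 52 with a minimum of 20 UMIs and 9 with 200 UMIs. The share over all genes under these settings is not given here. The 18 higher pairs became 9, 32 and 6, and the 14 lower pairs became 5 with few foreign markers, 9 without cycling cells and 3 with 200 UMIs. Among cells with few foreign markers 2 more ratios were past 1.5-fold, which they were not otherwise. Acaca in macrophage-like cells was at 1.199 (0.25 to 2.26), from 43 UMIs in treated and 12 in control. Srebf2 in monocyte-like cells was at 1.75 (0.31 to 3.68), from 50 UMIs in treated and only 4 in control. The class range of the summed sterol enzymes was 1.99-fold, and 2.32-fold after thinning to 2000 UMIs, where the highest class became pDC-like. It was 2.26-fold without immunoglobulin, mitochondrial and ribosomal protein genes, where the lowest class changed. The cause of these moves was not tested, except that fewer or more pairs enter under another minimum and fewer cells under a filter. No paired analysis was possible because each group has 1 library, and no library could be left out. Depth limits the small classes most, where 3 UMIs are worth up to 20.1 CPM.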
